A study of Mus musculus with 6 samples.

Results

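The core circadian clock genes described here were the 10 genes Arntl, Clock, Npas2, Per1, Per2, Per3, Cry1, Cry2, Nr1d1 and Nr1d2, taken by symbol from a table of 31838 mouse genes in which each symbol had exactly 1 row. All 10 passed the filter on low counts, as did 20428 genes in all, with 633 to 8637 deposited counts per gene and library, which may be more than the number of fragments sequenced. The RNA was polyadenylated RNA of the hippocampus of wild type C57BL/6 mice aged 4 months. Of the 6 libraries, 3 came from mice given corn oil, the control, and 3 from mice given 50 mg/kg/day of BBP, which is butyl benzyl phthalate, a compound that softens plastics. The labels give neither the time of day at which tissue was taken, nor the route, the duration of dosing or whether each library is a separate animal, so p-values measure only the spread between these libraries, which may be technical.

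The mammalian clock is a feedback loop of transcription. The proteins BMAL1 (gene Arntl) and CLOCK, or its relative NPAS2, bind E-box elements as a dimer and switch on the Period (Per) and Cryptochrome (Cry) genes, whose products enter the nucleus and repress that dimer. A coupled loop runs through the nuclear receptors REV-ERB alpha and beta (Nr1d1 and Nr1d2), which are E-box targets themselves and repress Arntl and Npas2 at elements that the ROR receptors activate. In most tissues Arntl mRNA therefore peaks when the Per and Nr1d1 mRNAs are low. Most cells of the body run this loop, the hippocampus included, where it has been tied to the daily course of memory formation. In whole tissue, less RNA per cell and fewer cells of a type cannot be told apart.

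The stretches before the transcription start of members show how these elements lie around the genes whose values follow, and are shown for the 3 members that were highest in BBP relative to corn oil (Arntl, Npas2, Nr1d1) and for 3 negative limb members (Per1, Per3, Cry1). RefSeq promoter windows (GRCm38.p6) were matched for 9 of the 10 members by symbol, with Per2 the exception. Each line gives the 250 bases before a start, 5′ to 3′ on the gene's strand, and capitals mark the motifs searched.
Arntl (chr7:113207261-113207510, plus strand): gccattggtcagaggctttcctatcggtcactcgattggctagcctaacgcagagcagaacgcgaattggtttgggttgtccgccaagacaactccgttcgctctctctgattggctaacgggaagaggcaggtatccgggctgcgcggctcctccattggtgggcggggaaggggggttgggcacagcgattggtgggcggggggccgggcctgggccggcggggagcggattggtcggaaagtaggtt
Npas2 (chr1:39194022-39194271, plus strand): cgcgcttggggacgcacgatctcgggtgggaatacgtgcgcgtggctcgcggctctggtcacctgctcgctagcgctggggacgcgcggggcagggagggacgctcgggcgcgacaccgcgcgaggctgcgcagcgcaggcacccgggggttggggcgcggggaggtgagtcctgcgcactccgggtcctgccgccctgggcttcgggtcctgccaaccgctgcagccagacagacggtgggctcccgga
Nr1d1 (chr11:98775378-98775627, minus strand): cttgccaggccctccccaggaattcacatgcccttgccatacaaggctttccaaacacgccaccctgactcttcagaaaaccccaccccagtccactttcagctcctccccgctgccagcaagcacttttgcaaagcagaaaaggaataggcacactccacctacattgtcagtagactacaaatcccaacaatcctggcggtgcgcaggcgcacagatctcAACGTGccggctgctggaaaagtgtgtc
Per1 (chr11:69098699-69098948, plus strand): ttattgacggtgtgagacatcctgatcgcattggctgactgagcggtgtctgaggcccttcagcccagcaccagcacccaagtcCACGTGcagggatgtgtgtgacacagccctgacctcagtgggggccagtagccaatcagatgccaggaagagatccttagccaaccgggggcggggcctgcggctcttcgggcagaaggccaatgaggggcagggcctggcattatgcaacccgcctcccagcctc
Per3 (chr4:151044666-151044915, minus strand): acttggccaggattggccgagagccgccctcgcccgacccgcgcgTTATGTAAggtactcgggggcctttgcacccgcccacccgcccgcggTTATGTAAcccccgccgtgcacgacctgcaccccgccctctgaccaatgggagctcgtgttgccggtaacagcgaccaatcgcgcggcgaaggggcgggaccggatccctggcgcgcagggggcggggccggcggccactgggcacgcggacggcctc
Cry1 (chr10:85185055-85185304, minus strand): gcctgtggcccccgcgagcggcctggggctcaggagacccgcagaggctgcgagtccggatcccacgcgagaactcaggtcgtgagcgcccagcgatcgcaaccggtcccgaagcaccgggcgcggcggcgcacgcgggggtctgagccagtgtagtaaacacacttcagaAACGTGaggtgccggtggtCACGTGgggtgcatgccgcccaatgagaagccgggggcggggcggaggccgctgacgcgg

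The motifs, searched on both strands in windows of 300 bases that run 50 bases past the start, were CACGTG (E-box), CACGTT (non-canonical E-box), TTATGTAA (D-box, bound by the PAR bZIP factors), TAGGTCA (core of the element shared by REV-ERB and ROR) and TGACGTCA (cAMP response element). The 9 members had 13 windows, since Arntl, Clock and Per1 had more than 1 each. The E-box stood in 1 window each of Per1 and Cry1, which is 2 of 9 members and 2 of 13 windows, and in 7.15% of all 32851 windows. The non-canonical E-box stood in those of Cry1, Cry2 and Nr1d1, on the opposite strand as AACGTG, and in 4.68% of all windows. Per3 held the D-box at 2 places, a motif found in 0.938% of all windows. Arntl held TAGGTCA past its start, at chr7:113207531-113207557 on the plus strand, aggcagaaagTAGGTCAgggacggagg, with the motif in capitals, and 2.61% of all windows held it. The cAMP response element was in none of the members' windows and in 1.79% of all. No motif hit of the members overlapped another, and the windows of Clock, Npas2 and Nr1d2 held no match to these letters. A match is a description of the sequence only.

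Facts of the libraries that touch the values below come first. The deposited counts of a library summed to between 62477604 and 68422361. Summed markers of the striatum and of the isocortex were highest in BBP library 1. The summed FPKM (fragments scaled by transcript length and library size) of 12 striatum markers was 192 there and 47.9 to 96.2 in the other 5 libraries. That of 10 isocortex markers was 123 against 46.0 to 56.9. Of the isocortex markers with the highest mean FPKM, Lamp5 had its highest value in BBP library 1 (64.5 FPKM) and Fezf2 its lowest (11.1 FPKM). The cause was not tested. The median deviation of 6 dentate granule neuron markers from the corn oil mean was -1.03 (log2 CPM, counts scaled by library size) in BBP library 1 and -0.47 to 0.50 elsewhere. In BBP library 2 mitochondrial genes took 11.5% of counts, against 7.11% to 8.57% in the others. Of 12 markers of the hypothalamus and the suprachiasmatic nucleus, the seat of the master clock, Prok2, Nms and Six6 had a mean under 0.1 FPKM. Those with the highest means were Grp, at 7.88 to 12.8 FPKM over the libraries, and Vip, at 4.36 to 8.88 FPKM. The summed level of the 12 lay between 24.1 and 29.1 FPKM in the controls and between 17.8 and 27.8 after BBP. The hippocampal markers Wfs1 (CA1) and C1ql2 (dentate gyrus) were present in all libraries, at 26.4 to 38.3 and 9.89 to 26.6 FPKM.

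No core clock gene differed between BBP and corn oil past the threshold. In edgeR's quasi-likelihood test over all 20428 genes, 0 of 10 members had an adjusted p under 0.05 (0.953 to 1.00), as did 0% of all genes tested. At an unadjusted p under 0.05 there were 3 members, Npas2, Arntl and Nr1d1, all higher in BBP, against 3.35% of tested genes in either direction, 1.98% higher and 1.37% lower. DESeq2 likewise had 0 members at an adjusted p under 0.05 and 3 at an unadjusted one. Of the 10 log2 fold changes 7 were above 0 and 3 below, where 52.4% of all genes were above 0, and the median was 0.01 for the members and 0.01 for all tested genes. The FPKM values of the groups did not overlap for 2 members, Arntl and Nr1d1, both higher in BBP, while 9.65% of all genes were separated, 4.4% with BBP higher and 5.25% with BBP lower. The unadjusted count of 3 was 0 without corn oil library 1, 1 without corn oil library 2 or 3, 3 without BBP library 1 or 3, and 2 without BBP library 2. Without corn oil library 1 the log2 fold changes stayed near those of all libraries, at 0.29 for Arntl, 0.35 for Npas2 and 0.53 for Nr1d1, with unadjusted p of 0.0507, 0.0510 and 0.0559 (edgeR).

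**Figure D1:**
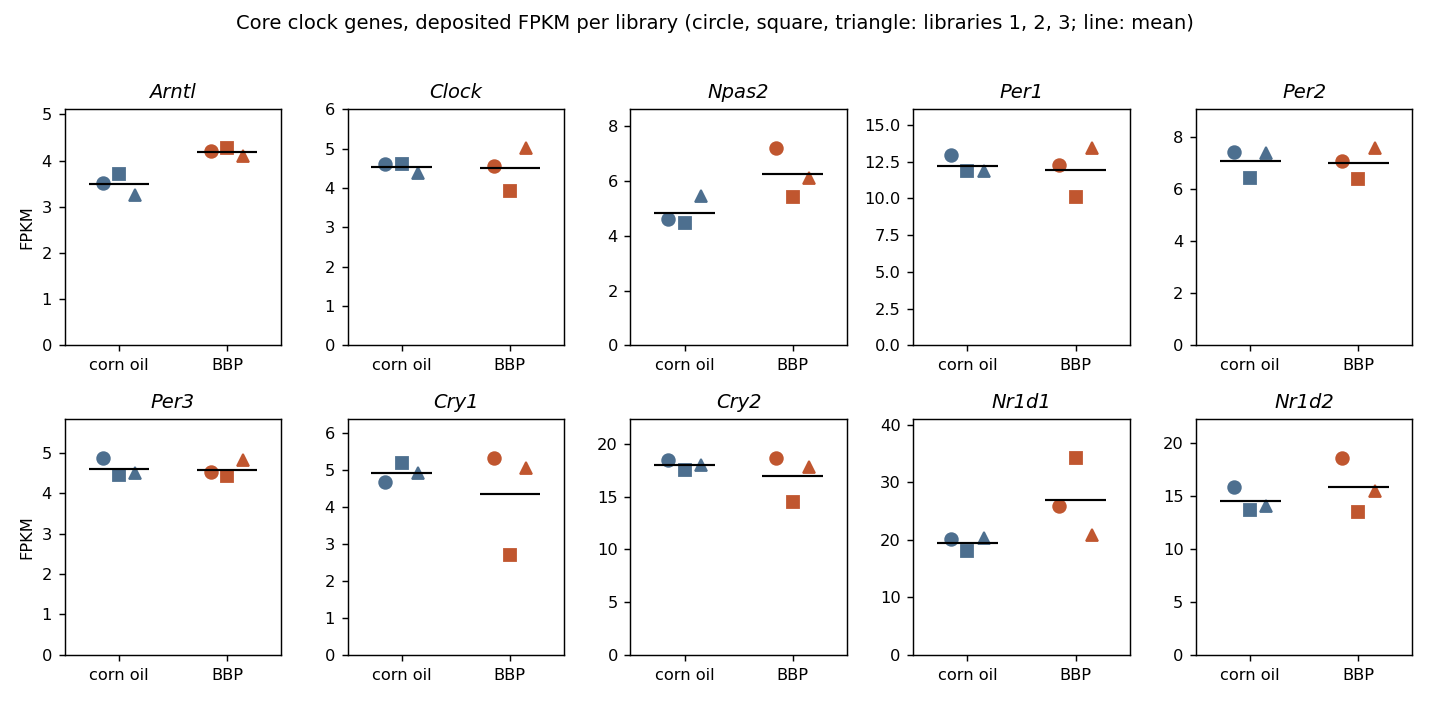
Deposited FPKM (vertical axes, starting at 0) of each core clock gene in the 3 corn oil (blue) and 3 BBP (orange) libraries, where circle, square and triangle are libraries 1, 2 and 3 and the line is the group mean. Arntl and Nr1d1 are the 2 genes whose groups do not overlap, and the square of BBP stands low for Cry1 and high for Nr1d1.

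The positive limb, which drives the loop, held 2 of the 3 members with the smallest p. Arntl (chromosome 7, 113207465 to 113314126 in mm10) had 3.52, 3.71 and 3.26 FPKM in corn oil libraries 1 to 3 and 4.21, 4.26 and 4.11 in BBP libraries 1 to 3. All BBP values lay above all corn oil values, and the spread within the groups on the log2 CPM scale was alike, with an SD of 0.097 in corn oil and 0.092 in BBP. The log2 fold change was 0.28 ± 0.10 (SE), a ratio of 1.22 with a 95% interval of 1.04 to 1.42, with an unadjusted p of 0.0185 (edgeR), an adjusted p of 0.953 and rank 155 of all tested genes by p. Across all other fits, library exclusions included, its log2 fold change ran from 0.21 to 0.33.

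Npas2, the relative of Clock that is abundant in the forebrain (chromosome 1, 39193731 to 39363236), had 4.63, 4.48 and 5.45 FPKM in corn oil and 7.19, 5.42 and 6.11 in BBP. Corn oil library 3 stood just above BBP library 2, so that the groups overlapped in FPKM (in log2 CPM they did not), and BBP library 1 was the highest. The log2 fold change was 0.38 ± 0.12 (unadjusted p = 0.0134, adjusted p = 0.953, edgeR), rank 107 by p. Without BBP library 1, where the striatum and isocortex markers were high, it was 0.28. Without corn oil library 3, the control with the highest summed markers of both regions, it was 0.47. The part of those regions in the Npas2 value was not tested. Clock itself (chromosome 5, 76209868 to 76304792) had 4.61, 4.62 and 4.40 FPKM in corn oil and 4.56, 3.93 and 5.01 in BBP. The BBP libraries lay on both sides of the corn oil ones, and the 95% interval of the ratio ran from 0.875 to 1.15.

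The Period genes, repressors whose mRNA is rhythmic in many tissues, stood at nearly the same level in both groups. Per1 (chromosome 11, 69095217 to 69109960), which is also induced by neuronal activity and by glucocorticoids, had 13.0, 11.9 and 11.8 FPKM in corn oil and 12.3, 10.1 and 13.4 in BBP. Per2 (chromosome 1, 91415982 to 91459324) had 7.45, 6.45 and 7.41 FPKM and 7.08, 6.38 and 7.57. Per3 (chromosome 4, 151003652 to 151044665) had 4.86, 4.44 and 4.50 FPKM and 4.52, 4.41 and 4.81. In FPKM the corn oil range lay inside the BBP range for Per1 and Per2, and the ranges overlapped for Per3. In log2 CPM the BBP range lay inside the corn oil range for Per2 and Per3. As deviations from the corn oil mean, Per2 ran from -0.132 to 0.075 in corn oil and from -0.052 to 0.069 in BBP. Their 95% intervals for the ratio of BBP to corn oil were 0.848 to 1.15 for Per1, 0.866 to 1.16 for Per2 and 0.889 to 1.15 for Per3, so that a difference of this size or less was not resolved in either direction.

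The Period genes also varied little from library to library. The highest over the lowest of the 6 FPKM values was 1.10 for Per3, 1.19 for Per2 and 1.32 for Per1. The SD of log2 CPM over the 6 libraries of Per3 was 0.054, larger than that of only 2.11% of all tested genes, and the corresponding percentiles were 8.59 for Per2 and 15.0 for Per1. This was not particular to the Period genes, since Clock (6.84) and Cry2 (12.3) lay in the same span. The percentiles were taken over tested genes of every count level, and no comparison with genes of like counts was made. Beside the Period genes, the medians of 12 immediate early genes and of 12 glucocorticoid-induced genes moved more between libraries. As deviations in log2 CPM, the former stood at 0.55 in BBP library 1 and at -0.25 to 0.07 in the other 5. The latter stood at -0.54 and -0.48 in BBP libraries 1 and 2 and at 0.52 in BBP library 3, where Per1 deviated by 0.00, -0.17 and 0.11. Their part in the Per1 values was not tested.

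The Cryptochromes, which bind and silence the BMAL1 dimer, differed in how the libraries behaved. Cry1 (chromosome 10, 85131700 to 85185064) had 4.67, 5.18 and 4.92 FPKM in corn oil and 5.31, 2.69 and 5.04 in BBP. BBP library 2 stood apart at a deviation of -0.76 on the log2 CPM scale, while the other BBP libraries were inside or just above the corn oil range. The log2 fold change was -0.17 ± 0.21, and it was 0.06 without BBP library 2. Cry2 (chromosome 2, 92403646 to 92434043) had 18.4, 17.5 and 17.95 FPKM in corn oil and 18.6, 14.5 and 17.8 in BBP. The lowest value again came from BBP library 2, the library with the highest mitochondrial share, whose part in the values of Cry1 and Cry2 was not tested, and the 95% interval of the ratio was 0.829 to 1.10.

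Of the REV-ERB receptors, the repressors of Arntl, Nr1d1 (chromosome 11, 98767932 to 98775333) had 20.1, 18.1 and 20.2 FPKM in corn oil and 25.8, 34.2 and 20.9 in BBP. The BBP values lay above all corn oil values, but BBP library 3 only just, and BBP library 2 was the highest. The log2 fold change was 0.50 ± 0.19, a ratio of 1.42 with a 95% interval of 1.05 to 1.92 (unadjusted p = 0.0286, adjusted p = 0.953, edgeR). Without BBP library 2 it was 0.25 (unadjusted p = 0.0635, edgeR), and 0.68 without BBP library 3. The part of the high mitochondrial share of BBP library 2 was not tested. In GENCODE M21, 8.55% of the exon bases of Nr1d1 also belong to exons of Thra on the opposite strand, and the strand setting of the counting is not given in the sources used here. Thra, a thyroid hormone receptor gene, had 158 to 166 FPKM in corn oil and 127, 140 and 168 in BBP libraries 1 to 3, and the part of Thra reads in the Nr1d1 values was not tested. Nr1d2 (chromosome 14, 18204054 to 18239127) had 15.9, 13.7 and 14.1 FPKM in corn oil and 18.6, 13.6 and 15.5 in BBP. Its groups overlapped, with the highest value in BBP library 1, and the log2 fold change was 0.15 ± 0.11.

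**Figure D2:**
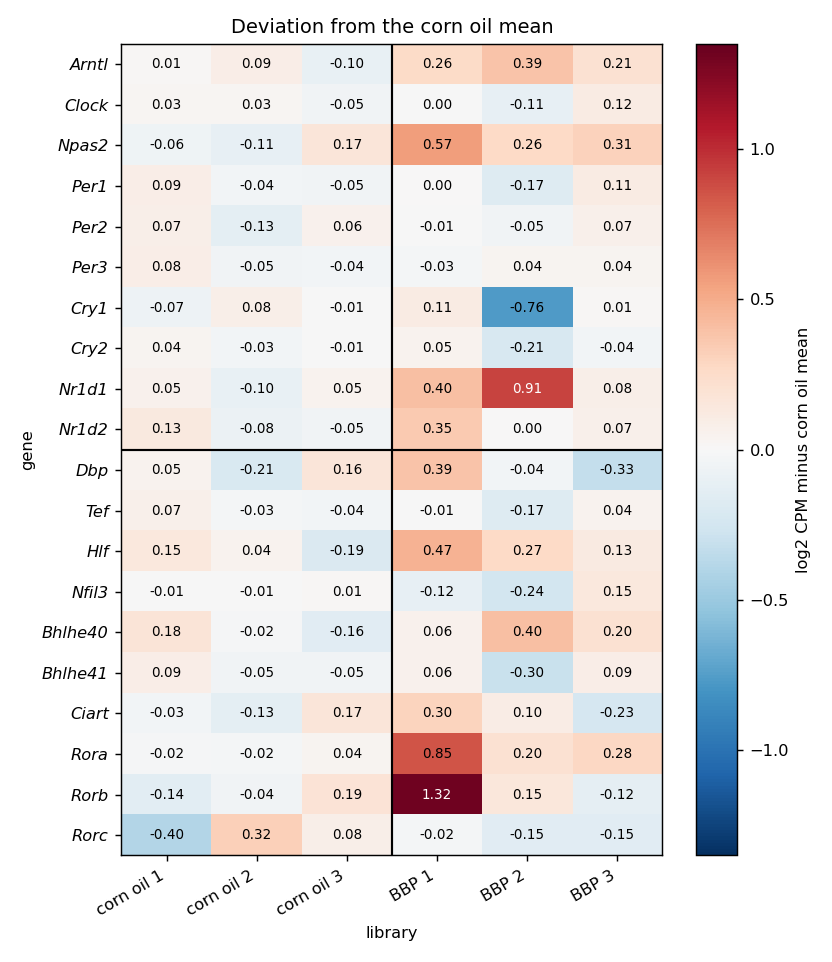
Deviation of log2 CPM from the corn oil mean (colour and printed number) for the 10 core clock genes (above the line) and 10 clock output and loop genes (below it) in each of the 6 libraries. The 3 BBP columns are above 0 for Arntl, Npas2 and Nr1d1, while BBP 2 holds -0.76 for Cry1 and BBP 1 holds 1.32 for Rorb.

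By level per transcript length, Nr1d1 was the most abundant member at a mean of 23.2 ± 5.96 FPKM (SD over 6 libraries), followed by Cry2 (17.5 ± 1.52), Nr1d2 (15.2 ± 1.92), Per1 (12.1 ± 1.14) and Per2 (7.06 ± 0.523). Npas2 (5.55 ± 1.00), Cry1 (4.64 ± 0.977), Per3 (4.59 ± 0.196), Clock (4.52 ± 0.352) and Arntl (3.84 ± 0.409) formed the lower end. The ranges of neighbours in this order were separate only between Nr1d2 and Per1 and between Per1 and Per2. Nr1d1 stood above Cry2, and Cry2 above Nr1d2, in 6 of 6 libraries, whereas Per3 stood above Clock in 3 of 6.

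Averaged by limb, the libraries of the groups parted in the positive limb and in the gap between the limbs. The mean deviation of Arntl, Clock and Npas2 from the corn oil mean (log2 CPM) was -0.01, 0.00 and 0.00 in corn oil libraries 1 to 3. It was 0.28, 0.18 and 0.21 in BBP libraries 1 to 3. In corn oil libraries 1 to 3 Arntl deviated by 0.01, 0.09 and -0.10 and Npas2, to the other side, by -0.06, -0.11 and 0.17. The near-0 corn oil means thus hide the spread of the single genes (SD 0.097 for Arntl and 0.146 for Npas2). The 5 Period and Cryptochrome genes stood at 0.04, -0.03 and -0.01 in corn oil and at 0.02, -0.23 and 0.04 in BBP, where BBP library 2 alone stood below the rest. The REV-ERB pair stood at 0.09, -0.09 and 0.00 and at 0.38, 0.46 and 0.07. The mean of the 7 negative limb and REV-ERB genes minus that of the positive limb was 0.06, -0.05 and -0.01 in corn oil and -0.15, -0.22 and -0.16 in BBP. The groups did not overlap in this difference, with means of 0.00 ± 0.0593 (SD, n = 3) and -0.18 ± 0.0342. This is a description of a score over the members and carries no test. Markers of other cell types had values on one side as well, with none past the adjusted p. The log2 fold change was above 0 for 7 of 7 endothelial and mural cell markers (4 without overlap in FPKM), 10 of 10 oligodendrocyte markers and 7 of 7 astrocyte markers, and below 0 for 7 of 7 choroid plexus markers. Of all tested genes, 52.4% were above 0, and 4.4% had BBP higher without overlap in FPKM. The summed FPKM in corn oil and BBP was 53.1 to 58.7 and 57.0 to 67.3 for the endothelial and mural list, and 571 to 786 and 637 to 922 for the oligodendrocyte list. It was 451 to 478 and 480 to 509 for the astrocyte list, and 85.4 to 374 and 49.4 to 62.9 for the choroid plexus list. No marker of these 4 lists had a mean under 0.1 FPKM, and their part in the limb values was not tested. Of its parts, Arntl and Npas2 set the positive limb, since Clock deviated by -0.11 to 0.12 in BBP. With only Arntl against the Period and REV-ERB genes the difference between groups was -0.16. For the score over all members, leaving out each library gave -0.20 to -0.15.

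**Figure D3:**
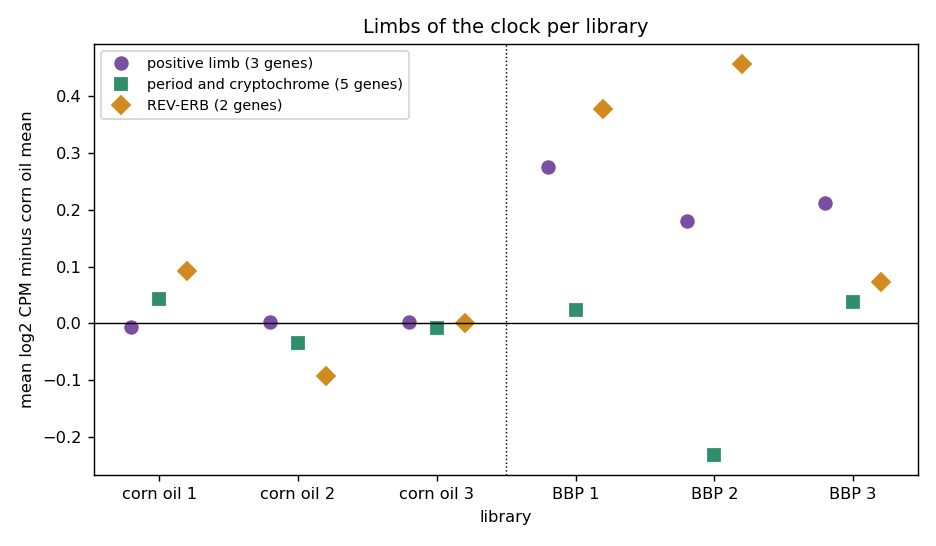
Mean deviation of log2 CPM from the corn oil mean in each library for the positive limb (circles, 3 genes), the Period and Cryptochrome genes (squares, 5 genes) and the REV-ERB genes (diamonds, 2 genes). The circles lie near 0 in corn oil and at 0.18 to 0.28 in BBP, while the squares stay near 0 except at -0.23 in BBP 2. In corn oil the circles average deviations of Arntl and Npas2 that have opposite signs.

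Whether positive and negative limb genes ran opposite to each other over the 6 libraries was examined in 21 pairs, each of 3 positive limb genes with each of 7 negative limb or REV-ERB genes. Of these, 9 had a negative and 12 a positive Pearson r, with a median of 0.18. None passed after Benjamini-Hochberg adjustment over the 21 pairs (smallest adjusted p = 0.525), and 1 had an unadjusted p under 0.05 in the exact permutation test over the 720 pairings (two-sided). For rho, the Spearman rank correlation, this test gives no p under 0.00278, too large for 1 pair alone to pass after adjustment over 21. The adjusted values of rho thus say little about any single pair. For r the smallest possible p is lower, so this limit does not hold for r. The pairs share genes and libraries.

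Arntl and Nr1d1, which in most tissues peak at opposite times, had a positive correlation over these libraries that did not pass the adjusted threshold (r = 0.79, exact permutation p = 0.0569, adjusted p = 0.598; rho = 0.83, exact permutation p = 0.0583, adjusted p = 0.612). Without corn oil library 3 and BBP library 2, the farthest from the median of Arntl, r was 0.72, and on deviations from the group means it was 0.55. Arntl and Per2 had r = -0.35 (exact permutation p = 0.469, adjusted p = 0.924) and rho = -0.43 (exact permutation p = 0.419, adjusted p = 0.992). Its r was 0.03 without the same 2 libraries, -0.78 on deviations from the group means, and -0.79 to -0.18 when each library was left out in turn. Arntl and Cry1 had r = -0.57 (exact permutation p = 0.296, adjusted p = 0.706) and rho = 0.03 (exact permutation p = 1.0, adjusted p = 1.0). It rested on BBP library 2: r was 0.62 without that library, and 0.69 without it and corn oil library 3.

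The pair with the smallest p, named for that reason after its value was seen, was Clock with Per1, at r = 0.89 (exact permutation p = 0.025, adjusted p = 0.525) and rho = 0.83 (exact permutation p = 0.0583, adjusted p = 0.612). BBP library 2 was lowest in both genes and BBP library 3 highest in both. Without these 2 libraries r was 0.54, and on deviations from the group means it was 0.90. The most negative r of the 21, also named after its value was seen, was that of Clock with Nr1d1, at -0.67 (exact permutation p = 0.172, adjusted p = 0.706) with rho = -0.43 (exact permutation p = 0.419, adjusted p = 0.992). It was -0.83 to -0.15 when each library was left out in turn (-0.15 without BBP library 2), -0.93 on deviations from the group means and -0.20 without BBP libraries 2 and 3.

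**Figure D4:**
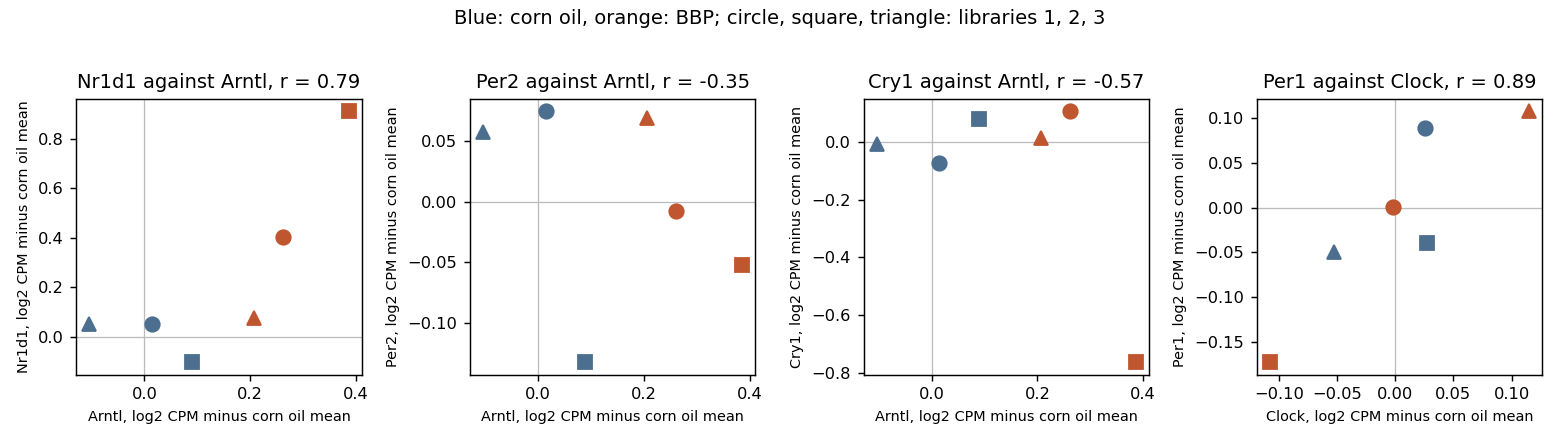
Log2 CPM minus the corn oil mean of 4 pairs of clock genes in the 6 libraries (blue corn oil, orange BBP; circle, square, triangle are libraries 1, 2, 3). Nr1d1 against Arntl slopes upward (r = 0.79), and the negative r of Cry1 against Arntl (-0.57) comes with the single low point of BBP 2.

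Genes that read out or feed back on the loop showed no common direction. Of 10 output and second-loop genes, 10 were tested, 0 passed the adjusted p, 2 were at an unadjusted p under 0.05 (both higher in BBP), and 6 were above 0 in log2 fold change (median 0.05). The PAR bZIP factors, transcription factors that act at D-boxes, split. Hlf had 20.6, 19.2 and 16.4 FPKM in corn oil and 26.0, 21.05 and 20.7 in BBP, with the lowest BBP value just above the highest corn oil one in FPKM, while in log2 CPM the groups overlapped (log2 fold change 0.29 ± 0.12, unadjusted p = 0.0438, adjusted p = 0.953, edgeR). Dbp, among the strongest rhythmic outputs of the clock, had 14.7, 12.2 and 16.0 FPKM and 18.7, 12.9 and 11.5, so that the BBP libraries held both its highest and its lowest value. Tef averaged 42.4 ± 1.75 FPKM in the controls (SD, n = 3) and 40.6 ± 4.93 after BBP. Their D-box competitor Nfil3 averaged 4.86 ± 0.0578 and 4.60 ± 0.833 FPKM.

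Of the repressors that act at E-boxes, Bhlhe40 averaged 19.0 ± 2.18 FPKM in the controls (SD, n = 3) and 21.8 ± 1.78 after BBP (log2 fold change 0.22 ± 0.12). Its relative Bhlhe41 averaged 4.84 ± 0.263 and 4.65 ± 0.859 FPKM. Ciart, a repressor of the BMAL1 dimer, averaged 4.15 ± 0.460 and 4.29 ± 0.774, and like Dbp it was highest in BBP library 1 and lowest in BBP library 3. The groups overlapped in each of these 3 genes.

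The ROR receptors activate Arntl at the element that REV-ERB represses. Rora had 1.88, 1.88 and 1.97 FPKM in corn oil and 3.45, 2.05 and 2.36 in BBP, without overlap (log2 fold change 0.47 ± 0.17, unadjusted p = 0.0211, adjusted p = 0.953, edgeR). Rorb, named here after its values were seen, had 1.31, 1.40 and 1.65 FPKM in corn oil and 3.62, 1.50 and 1.36 in BBP. Both were highest in BBP library 1, and without that library the log2 fold changes were 0.24 for Rora and 0.02 for Rorb. Rora is also in the thalamus list and Rorb in the isocortex list of markers, and the isocortex markers were high in the same library. Among 18 genes for kinases, ubiquitin ligases and partners of clock proteins, 0 passed the adjusted p, 0 were at an unadjusted p under 0.05, and 9 were positive and 9 negative. The smallest p of these was that of Gsk3b, a kinase of clock proteins, at 13.0 ± 0.367 and 14.1 ± 0.848 FPKM (log2 fold change 0.14 ± 0.08).

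**Figure D5:**
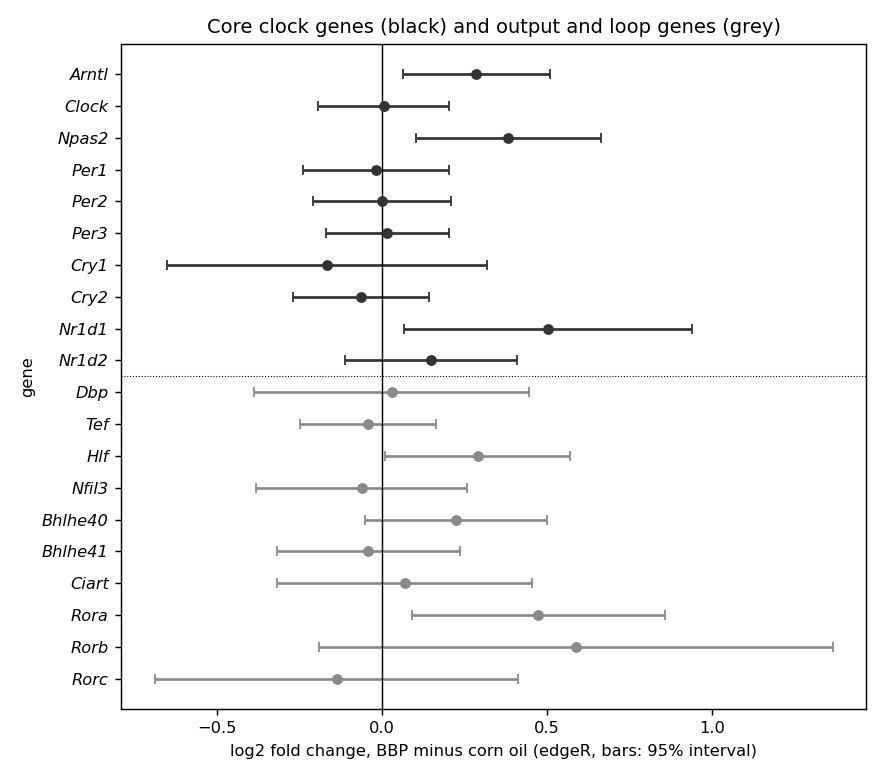
Log2 fold change of BBP minus corn oil from edgeR with its 95% interval for the 10 core clock genes (black) and 10 output and loop genes (grey). The intervals of Arntl, Npas2, Nr1d1, Hlf and Rora do not reach 0 before adjustment, and none of these genes passed the adjusted p.

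Genes with a pattern like that of a clock gene were sought among 11419 named genes with a mean of at least 1 FPKM, by Pearson r of log2 CPM over the 6 libraries. This is a description, since many genes reach a high r over 6 libraries. Most like Arntl were Acsl3, an acyl-CoA synthetase gene (r = 0.995), the myosin gene Myo1d (0.989) and Pdzd2 (0.989). Acsl3 stood at 34.4 ± 1.54 FPKM in the controls (SD, n = 3) and 40.7 ± 0.514 after BBP. Among the other members and the 7 output genes named here, Hlf (r = 0.80, rank 479), Nr1d1 (0.79, rank 505) and Bhlhe40 (0.79, rank 517) came nearest to Arntl, and Npas2, its partner, had rank 1856 (r = 0.56). Most like Per2 were Extl1 (r = 0.973), Gfer (0.967) and Mlycd, the malonyl-CoA decarboxylase gene (0.959). Per1 had rank 573 there (r = 0.60) and Tef rank 759 (r = 0.56).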

How the data were processed

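Per the file headers, the deposited table holds, for each gene and library, FPKM and estimated counts, with mm10 coordinates. The deposited estimated counts are whole numbers, and in each of the 6 libraries a count of 4 was more frequent than 3 or 5, so that about 4 counts may stand for 1 fragment and the counts may overstate the depth. How they were made and with which strand setting is not given in the sources used here. Tools listed in the submitters' processing notes, without a role, are HISAT2 2.2.1, StringTie 2.1.6, cutadapt 1.9, UMI-tools, edgeR and DESeq2. Per the labels' protocols, RNA was oligo(dT)-selected and made into dUTP paired-end libraries with molecular identifiers.

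The estimated counts were fitted over all genes with edgeR 4.0.16 in R 4.3.3 (low counts removed by filterByExpr, TMM scaling, 1 term for treatment, two-sided quasi-likelihood test, Benjamini-Hochberg over all tested genes, threshold 0.05). SE was obtained by dividing the size of the log2 fold change by the root of its F statistic. Log2 CPM used a prior count of 2. FPKM values are as deposited. The named genes were the members, 7 output genes, the 2 other clock genes with the smallest p, marker genes with the highest FPKM, and the 3 genes most like Arntl and Per2. The members, lists and tests were chosen with earlier results of these data known. Alternatives were DESeq2 1.42.0, median-of-ratios factors, no filter, counts divided by 4, a replicate block and each library left out. Further fits used limma 3.58.1 on log2(FPKM + 1), with and without a mean FPKM of at least 1, and on log2(FPKM + 0.1) with that minimum. The alternatives for likeness were added after seeing the data. The fitting code was tested on simulated data. No library was left out.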

Additional observations from a re-analysis of the deposited data

How the results depend on the processing

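No core clock gene had an adjusted p under 0.05 in edgeR, DESeq2, limma or any fit without a library. Over all genes the count was 0 in edgeR (685 at an unadjusted p under 0.05) and 3 with DESeq2 (Gm2004, Gm2274 and Vcp-rs), and 0 to 3 without each library (Zbtb12 without corn oil library 2; Commd1b, Gm45062 and Scgb1a1 without BBP library 1), names picked after the fact. Arntl, Npas2, Nr1d1, Nr1d2, Hlf, Bhlhe40, Rora, Rorb and Gsk3b were positive in every fit run.

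Genes near 0 turned sign. Without a filter the log2 fold change was -0.0039 for Clock and -0.0073 for Per2, and it was -0.00070 for Per2 with median-of-ratios factors. In limma on log2(FPKM + 1), with and without the filter, it was -0.016 for Clock, -0.017 for Per2, -0.0046 for Per3 and -0.013 for Dbp, and on log2(FPKM + 0.1) -0.020, -0.019, -0.0055 and -0.015. Leaving out each library gave -0.054 to 0.058 for Clock, -0.084 to 0.054 for Per1, -0.062 to 0.039 for Per2, -0.0076 to 0.060 for Per3, -0.32 to 0.059 for Cry1, -0.12 to 0.0031 for Cry2, -0.18 to 0.18 for Dbp, -0.089 to 0.017 for Tef, -0.18 to 0.022 for Nfil3, -0.11 to 0.072 for Bhlhe41 and -0.060 to 0.20 for Ciart. The causes were not tested.

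The number of the 21 limb pairs with a negative r was 5 to 11 over the library exclusions, with 5 without BBP library 2. Over these, r of Arntl with Cry1 ran from -0.76 to 0.62 and that of Arntl with Per2 from -0.79 to -0.18. Without the 2 farthest libraries they were 0.69 and 0.032. The difference between the limbs kept its sign in every fit. Same-numbered libraries of the 2 groups shared no pattern (r of their deviations over 20428 genes -0.08, 0.08 and -0.10), and with the replicate block 0 members passed and the log2 fold changes of Arntl, Npas2 and Nr1d1 were 0.29, 0.38 and 0.46.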
